A study of Rattus norvegicus with 6 samples.

Results

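Hcn2, Hcn3 and Hcn4 encode hyperpolarization-activated cyclic nucleotide-gated (HCN) channels, and their transcripts were followed in the dorsal root ganglia (DRG) of rats with a constricted sciatic nerve. The members were the rows of the deposited gene table whose symbol was Hcn2, Hcn3 or Hcn4, which gave 3 rows, 1 per gene, out of 43350 in all. All 3 passed the filter on low values and were among the 26663 rows tested.

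Total RNA of the lumbar DRG was taken from 3 rats with chronic constriction injury (CCI) of the sciatic nerve and from 3 sham rats, all male Sprague-Dawley rats with no genetic change named, 11 days after surgery. The nerve of a CCI rat was loosely tied on the left side, and in a sham rat it was exposed but not tied according to the methods of the study. The labels differ from this, since they give the treatment of the sham rats as none and speak of a pooled sample, while the methods describe 1 rat per sample. No age is given in the labels, while the methods give one in weeks for the rats as acquired, before a period of habituation. Ganglia on the side of the injury also hold neurons whose axons do not run in the tied part of the nerve, and each library mixes neurons with glia, immune cells and vessels.

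HCN channels open when the membrane hyperpolarizes and then let sodium and potassium through, and this inward current, called Ih, drives a neuron or a pacemaker cell back towards its firing threshold. Each subunit carries a cyclic nucleotide-binding domain, and binding of cAMP eases the opening strongly in HCN2 and HCN4. In sensory neurons HCN2 is known for cAMP-driven repetitive firing of nociceptors and for its part in inflammatory and neuropathic pain, HCN4 is best known as the pacemaker channel of the sinoatrial node, and HCN3 is the least studied of them in this tissue.

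The libraries held between 75423546 and 87615743 counted reads, so that 3 counts, taken as the detection limit, were worth 0.0342 to 0.0394 CPM (the reads of a gene set against the TMM-scaled size of the library). The labelled groups lay apart on principal component 1 (23.7% of the variance). A gene was called changed at the limits of the study in edgeR's quasi-likelihood test, which ask for an unadjusted p under 0.05 together with a size of 0.58 or more on the log2 scale. These limits called 686 rows (2.57%) higher and 336 rows (1.26%) lower in CCI rats, and edgeR's test with Benjamini-Hochberg adjustment left 25 rows (0.0938%) at an adjusted p under 0.05. The study's own screen at these limits reported fewer genes in each direction. Sham 1 stood apart in skeletal muscle genes, with a summed level of 376.5 CPM over 6 markers against 8.48 to 47.7 CPM in the other libraries, so the member values are also given without it. The injury list, which includes Atf3, a transcription factor induced in neurons after axon damage, was high where the labels say CCI. All 7 of its genes passed the limits as higher in CCI rats, with a median log2 fold change of 4.49 and summed levels of 415.4 to 711 CPM against 172 to 184.5 CPM in sham rats. The study names all 7 among the genes upregulated in these same rats, so their calls are no independent check of the labels.

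Of the 3 HCN genes, 0 were called changed, against 3.83% of all rows tested. Hcn2 averaged 81.6% of its sham level in CCI rats, with every CCI library below every sham library, and its unadjusted p was under 0.05 while its size and its adjusted p missed the limits. Hcn3 averaged somewhat more and Hcn4 about the same as in sham rats, both with overlapping groups. Hcn2 was the most abundant transcript of these genes in both groups, by a wider margin in FPKM than in CPM.

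On a scale per length, Hcn2 averaged 26.0 ± 2.09 FPKM (fragments set against row length and library size; SD, n = 3) in sham rats and 21.5 ± 0.963 FPKM (SD, n = 3) in CCI rats. Hcn4 followed with 3.48 ± 0.628 FPKM in sham and 3.60 ± 0.293 FPKM in CCI rats. Hcn3 stood at 2.90 ± 0.197 FPKM in sham and 3.31 ± 0.410 FPKM in CCI rats. The step in FPKM from Hcn2 to the other genes was far larger than the spread between libraries, but its size depends on the row lengths. The lengths behind the FPKM values were 2789 bases for Hcn2, 7040 for Hcn3 and 6055 for Hcn4. In CPM, which is not set against length, Hcn2 was 2.64 to 4.17 times Hcn4 and 2.23 to 4.15 times Hcn3. The FPKM level of Hcn2 was 5.74 to 9.06 times that of Hcn4 (median 6.48) and 5.62 to 10.5 times that of Hcn3 (median 8.03) over the 6 libraries, and in an exact two-sided sign-flip permutation test over libraries each gave p = 0.03125, the smallest 6 libraries allow. Hcn4 and Hcn3 were not told apart, since the FPKM of Hcn4 was the higher in 4 of 6 libraries (exact sign-flip permutation p = 0.2188) and its CPM in 3 of 6. The read counts behind these values were large, 4407 to 6603 per library for Hcn2, 1590 to 2124 for Hcn3 and 1370 to 2065 for Hcn4, so that counting error was small beside the differences between rats.

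**Figure D1:**
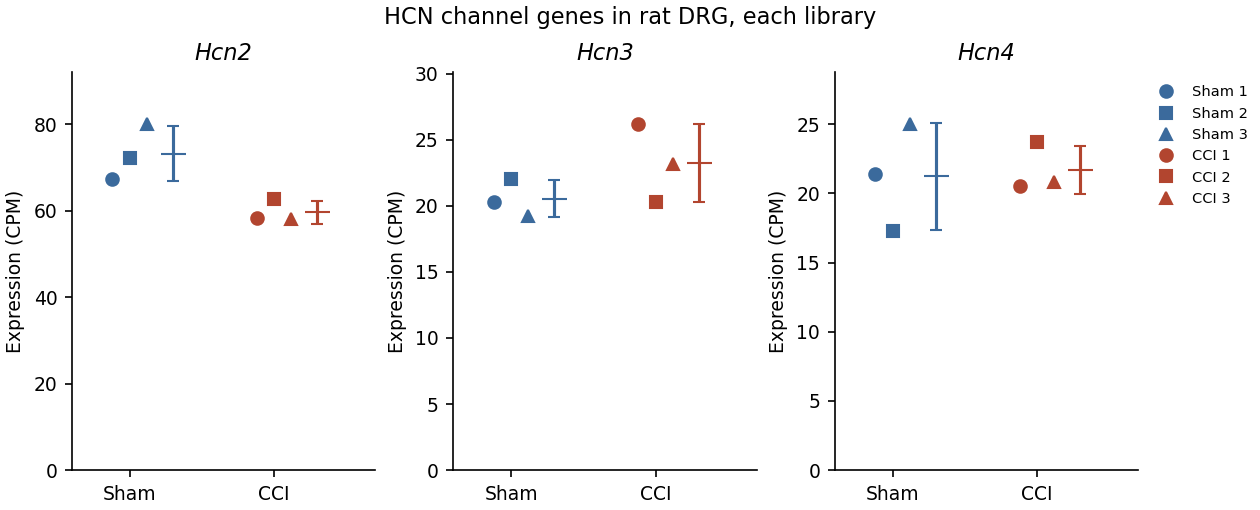
Expression of Hcn2, Hcn3 and Hcn4 in CPM (vertical axis, from 0, a separate scale in each panel) in each sham and CCI library, with a symbol per replicate number and the group mean with its SD to the right of the points. The 3 CCI libraries of Hcn2 sit between 57.9 and 62.7 CPM, below the sham libraries at 67.4 to 80.0 CPM, while the groups of Hcn3 and Hcn4 overlap.

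Hcn2 is the HCN subunit most closely tied to nociceptor firing. Its row, MSTRG.25111, covered chromosome 7 from 12851739 to 12874215 on the minus strand of the genome named V101 by the authors, and no other row of the table overlapped it. Its level was 67.4, 72.1 and 80.0 CPM in sham rats 1, 2 and 3 and 58.3, 62.7 and 57.9 CPM in CCI rats 1, 2 and 3. The groups did not overlap, the highest CCI rat lying below the lowest sham rat, and the sham rats spread more widely (73.1 ± 6.38 CPM, SD, n = 3) than the CCI rats (59.6 ± 2.67 CPM, SD, n = 3). Of all rows tested, 8.7% had every CCI library below every sham library, so this arrangement was not rare. The log2 fold change was -0.29 with a standard error of 0.08 (95% interval -0.48 to -0.10), which puts the CCI level at 81.6% of sham with an interval from 71.5% to 93.1%. EdgeR's quasi-likelihood test gave an unadjusted p of 0.008635 and a Benjamini-Hochberg adjusted p of 0.2708 over all rows. At an unadjusted p under 0.05 and any size, 5.18% of all rows were lower in CCI rats. The whole interval lay inside the limit of 0.58 in size. In a bulk sample, fewer cells that express Hcn2 and less Hcn2 RNA per cell cannot be told apart.

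The size of the Hcn2 difference varied little with the processing. Over 15 alternatives the log2 fold change ran from -0.35 to -0.22, with an unadjusted p from 0.003533 to 0.04779. The adjusted p moved much more, from 0.08842 with DESeq2 to 0.798 with edgeR's exact test, both Benjamini-Hochberg adjusted. Without sham 1, the library with muscle transcripts, the log2 fold change was -0.35 (unadjusted p = 0.005037 in edgeR's test), and without sham 3, its highest library, it was -0.22.

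Hcn3 pointed the other way, without passing a limit. Its row, MSTRG.16397, covered chromosome 2 from 188454853 to 188471988 on the minus strand. The 3 sham rats had 20.3, 22.0 and 19.3 CPM, and the 3 CCI rats had 26.2, 20.3 and 23.2 CPM. CCI 1 and CCI 3 lay above all sham rats, while CCI 2 had the same level as sham 1. The mean was 23.2 ± 2.93 CPM (SD, n = 3) in CCI rats and 20.5 ± 1.39 CPM (SD, n = 3) in sham rats. This came to a log2 fold change of 0.18 with a standard error of 0.11 (95% interval -0.09 to 0.45), with an unadjusted p of 0.1579 and an adjusted p of 0.6606 in edgeR's quasi-likelihood test. CCI 1 decided much of this value, which was 0.08 without CCI 1 and 0.27 without CCI 2 (unadjusted p = 0.04588 in edgeR's test), and it was 0.17 without sham 1.

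Hcn3 is the only member whose row shared ground with another gene. Pklr, the liver and red cell pyruvate kinase, lies on the opposite strand and overlapped it by 4740 bases. The library kit marks strand, while the strand setting of the counting is not given in the sources used here, so reads of the shared stretch could have been given to either row. Pklr itself was low, with 120, 51 and 7 counts in CCI rats 1, 2 and 3 and 43, 49 and 56 counts in sham rats 1, 2 and 3, and it did not pass the filter. CCI 1 had the highest counts of both genes, 2124 for Hcn3 and 120 for Pklr. The part of the shared stretch in the Hcn3 value was not tested.

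Hcn4, the sinoatrial pacemaker channel, differed least between the groups. Its row, MSTRG.27363, covered chromosome 8 from 63600663 to 63639654 on the plus strand and overlapped no other row. In sham rats it had 21.4, 17.3 and 25.0 CPM and in CCI rats 20.6, 23.7 and 20.8 CPM. The sham rats held both the lowest and the highest of the 6 values, so the CCI range lay inside the sham range. The means were 21.7 ± 1.76 CPM (SD, n = 3) in CCI and 21.2 ± 3.87 CPM (SD, n = 3) in sham rats, with a log2 fold change of 0.03, a standard error of 0.14 and a 95% interval from -0.32 to 0.38. EdgeR's quasi-likelihood test gave an unadjusted p of 0.8321 and an adjusted p of 0.9655. The sign turned when sham 2, its lowest library, was left out (-0.09) and when CCI 2 was left out (-0.04), and it was 0.17 without sham 3 and 0.04 without sham 1. A difference past the limit of 0.58 in either direction lay outside the 95% intervals of all 3 genes, as it did for 12537 rows (47.0%) of all those tested.

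**Figure D2:**
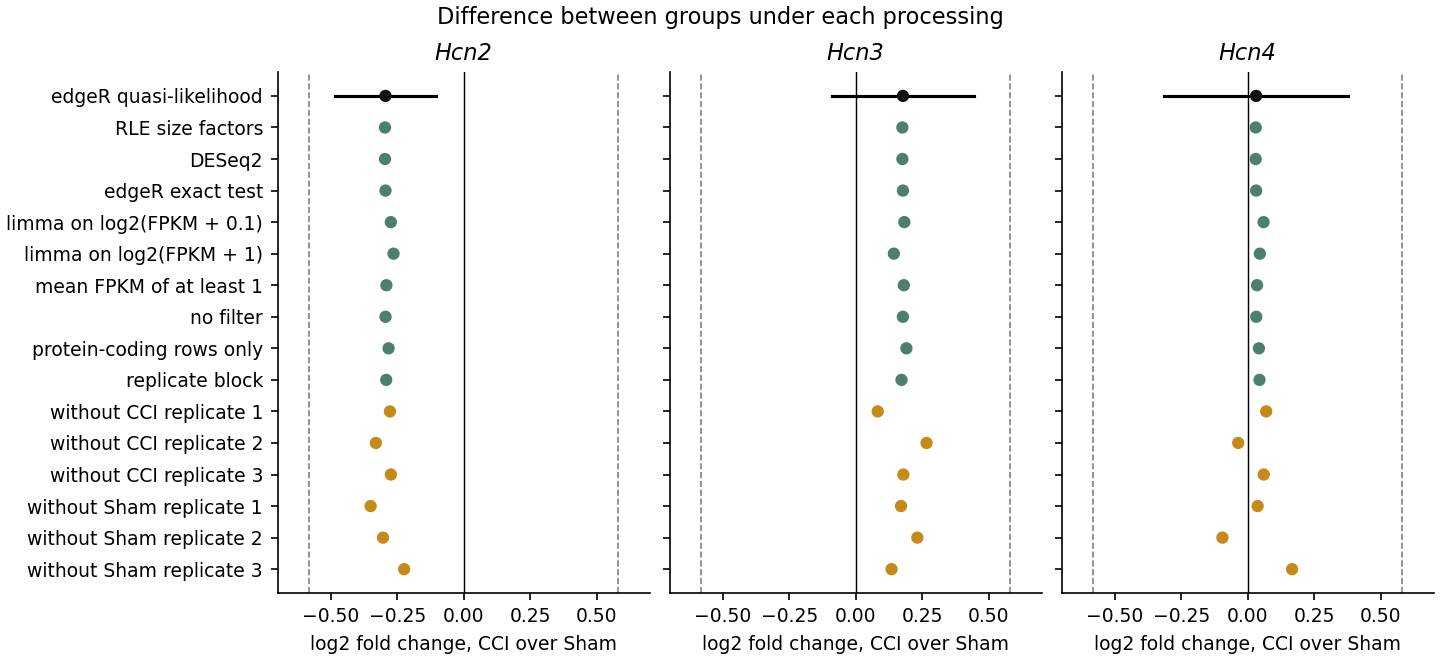
Log2 fold change of CCI over sham (horizontal axis) for Hcn2, Hcn3 and Hcn4 under each processing (vertical axis), with black for edgeR's quasi-likelihood test and its 95% interval, green for other tools, scalings, filters or designs and ochre for leaving out a library; dashed lines mark 0.58 in size. Every Hcn2 point lies left of 0, between -0.35 and -0.22, every Hcn3 point lies right of 0, and the Hcn4 points lie on both sides.

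Since a ratio within a library does not depend on how libraries are scaled, the members were also set against each other. In log2 units of CPM, the ratio of Hcn3 to Hcn2 was -1.37 ± 0.24 (SD, n = 3) in CCI rats and -1.83 ± 0.19 (SD, n = 3) in sham rats, a difference of 0.46. The ratio of Hcn4 to Hcn2 was -1.46 ± 0.05 in CCI rats and -1.80 ± 0.23 in sham rats, a difference of 0.34. In both ratios every CCI library lay above every sham library, and the exact two-sided permutation test gave p = 0.1, the smallest that 3 rats against 3 allow. Both ratios share Hcn2, so they are not independent of each other, and a ratio shows unequal change without saying which gene changed. Put as shares of the summed FPKM of the 3 genes, Hcn2 made up 79.0%, 81.2% and 80.7% in sham rats 1, 2 and 3 and 74.6%, 76.8% and 75.5% in CCI rats 1, 2 and 3. The mean share of Hcn3 was 8.99% ± 1.13 in sham and 11.7% ± 1.73 in CCI rats, and that of Hcn4 was 10.7% ± 1.51 in sham and 12.7% ± 0.643 in CCI rats (SD, n = 3 each). The groups did not overlap in any of these 3 shares, which add up to a fixed total, and each gave p = 0.1 in the exact permutation test.

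The level of Hcn2 was then set against genes that mark neurons. Summed over 7 pan-neuronal markers, the level was 6845 to 7423 CPM in CCI rats and 5814 to 6765 CPM in sham rats. The log2 ratio of Hcn2 to that sum was -6.89 ± 0.09 (SD, n = 3) in CCI rats and -6.44 ± 0.11 (SD, n = 3) in sham rats, a difference of -0.46 (exact permutation p = 0.1) with no overlap of the groups. Much of that sum came from Tubb3, a neuronal tubulin, and Stmn2, a regulator of growing microtubules. These had log2 fold changes of 0.31 (unadjusted p = 0.008322) and 0.33 (unadjusted p = 0.006669) in edgeR's test and were not called. In a comparison chosen after seeing the data, leaving these genes out gave a difference of -0.23 (exact permutation p = 0.1), again without overlap. Snap25, a synaptic vesicle fusion protein, and Rbfox3, the NeuN antigen, had log2 fold changes of -0.39 and -0.24. The pan-neuronal list therefore held genes in both directions, with a median of 0.04 and 0 of 7 called.

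**Figure D3:**
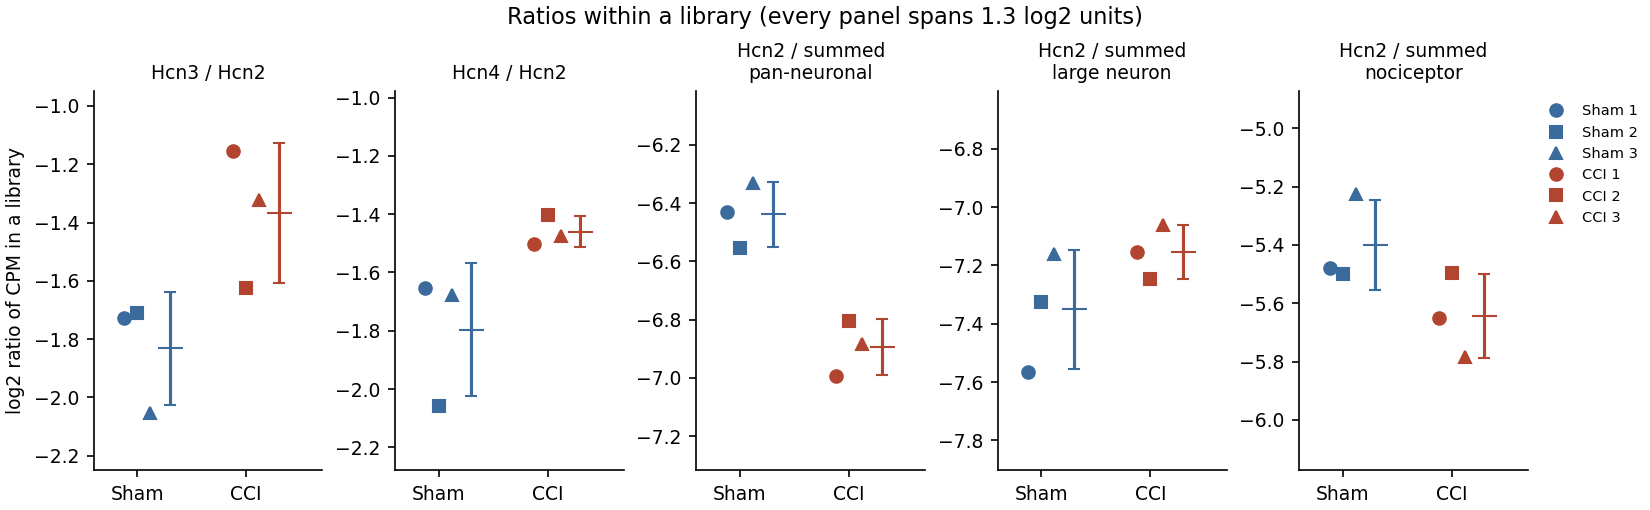
Log2 ratios of CPM within a library (vertical axis, each panel spanning 1.3 log2 units) in sham and CCI rats, with a symbol per replicate number and the group mean with its SD beside the points. The CCI and sham libraries are apart for Hcn3 to Hcn2, Hcn4 to Hcn2 and Hcn2 to the pan-neuronal sum, and they overlap for Hcn2 against the large neuron and nociceptor sums.

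Markers of neuron classes moved beside Hcn2 as follows. The large neuron list, with neurofilaments, Pvalb, a calcium-binding protein of proprioceptors, and Scn1a, the Nav1.1 sodium channel, had log2 fold changes below 0 in 8 of 8 genes (median -0.41). Its summed level, most of it from the neurofilament genes, was 7742 to 9528 CPM in CCI rats and 11440 to 12760 CPM in sham rats. Pvalb was the 1 gene called lower, at -0.69 (unadjusted p = 0.001336), or -0.57 and short of the limit without sham 1. Nefl, the neurofilament light chain, was the 1 gene with an adjusted p under 0.05 (0.04566 in edgeR's test, from 1.127e-11 to 0.1936 under the alternatives) at a log2 fold change of -0.57. Nefh, the heavy chain, and Scn1a had -0.55 and -0.53. Among 9 nociceptor markers 0 were called, with a median of -0.15 and summed levels of 2831 to 3193 CPM in CCI rats and 2989 to 3258 CPM in sham rats. The list ran both ways, with 6 genes below 0 and 3 above. Of the 9, edgeR's test gave 5 an unadjusted p below 0.05, against 10.7% of all rows. DESeq2 also gave 5, each limma fit 4 and edgeR's exact test 0. Of the 5 in edgeR's test, P2rx3 alone lay above 0. Scn11a, Calca and Mrgprd had -0.15, -0.15 and -0.20 (unadjusted p = 0.03462, 0.03521 and 0.01524 in edgeR's test), with groups that did not overlap. Trpv1, the capsaicin receptor, had -0.19 (unadjusted p = 0.009992 in edgeR's test), and P2rx3, an ATP receptor of non-peptidergic nociceptors, had 0.16 (unadjusted p = 0.01566), each with groups that did not overlap. The part of neuron class markers in the Hcn2 value was not tested.

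Other cell types in the ganglia were followed by their own lists. Of 6 macrophage markers 3 were called higher and 0 lower (median 0.63), with summed levels of 67.6 to 97.9 CPM in CCI rats and 45.8 to 64.0 CPM in sham rats. Of the 5 general DRG neuron genes, 5 satellite glia genes and 6 Schwann cell genes, 0 were called, with medians of -0.03, 0.03 and -0.14. The 3 T cell markers were all under the filter, at summed levels of 0.126 to 0.333 CPM. No gene was called among the tested endothelial (2), fibroblast (3) and erythrocyte (2) markers, whose medians were -0.05, -0.06 and -0.32. Of 6 skeletal muscle genes 4 were called lower, a count that limma on log2(FPKM + 0.1) put at 0. Hcn4 is also a heart gene, and of 4 cardiac markers 3 were tested and 0 called (median 0.08). Per length, Hcn4 was at 2.83 to 4.08 FPKM, beside 1.81 to 3.30 FPKM for Nppa, the atrial natriuretic peptide. The row that joins Myh6 and Myh7, the cardiac myosin heavy chains, was at 3.49 to 7.86 FPKM, set against a length of 28495 bases. In CPM that row was at 100.7 to 223.6, against 17.3 to 25.0 for Hcn4. Tnnt2, the cardiac troponin T, was at 0.244 to 1.38 FPKM, and Tnni3, the cardiac troponin I, had no count in CCI 2 and CCI 3 and at most 0.628 FPKM elsewhere. The part of these cell types in the member values was not tested.

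**Figure D4:**
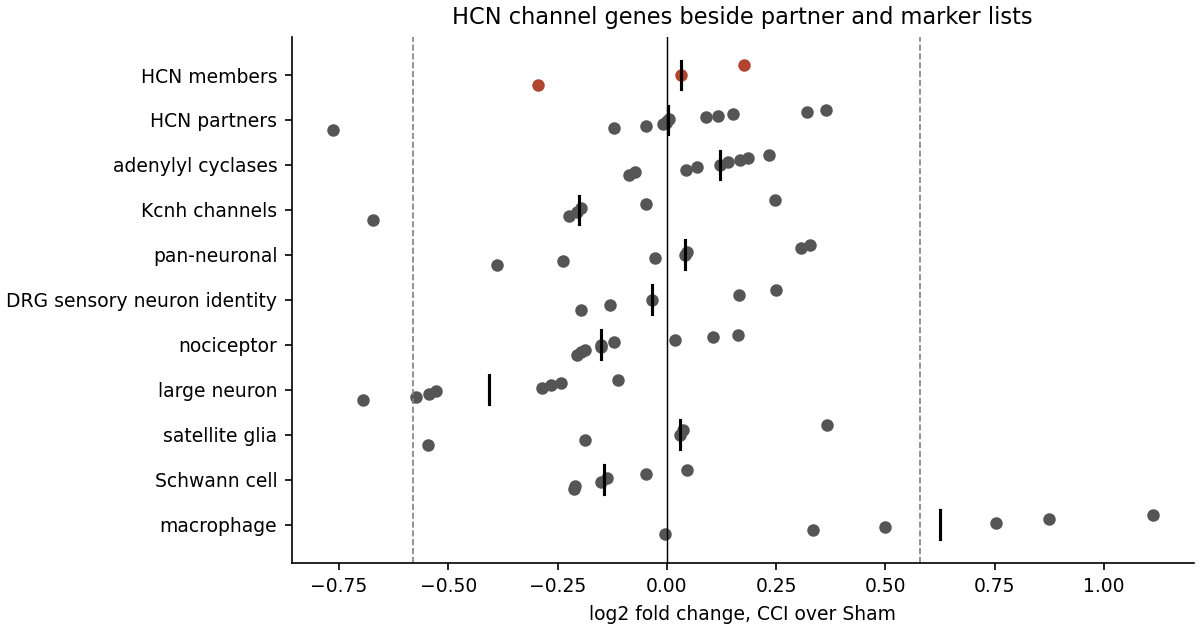
Log2 fold change of CCI over sham (horizontal axis) of each tested gene (points) of the lists named on the vertical axis, with the median of a list as a black bar and dashed lines at 0.58 in size. The 3 HCN genes (red) lie between -0.29 and 0.18. Hcn2 lies within the range of the partner list only through the short Magi2 row at -0.76, and the next lowest partner is Vapb at -0.12. The large neuron markers all lie below 0.

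Genes beside the members on the chromosome served to show whether a locus moved as a whole. Next to Hcn2, Polrmt, the mitochondrial RNA polymerase at a distance of 585 bases, had a log2 fold change of -0.14 (unadjusted p = 0.2739), and Bsg, the cell surface protein basigin at 1321 bases on the other side, had 0.04 (unadjusted p = 0.5656). Beside Hcn3, Fdps, an enzyme of isoprenoid synthesis, lay 41633 bases away and a row that joins Scamp3, Mir3541 and Fam189b lay 4831 bases away. Both had values near 0 (0.0007 and 0.0046). Neo1, a receptor for guidance cues 11744 bases from Hcn4, had 0.10 (unadjusted p = 0.2169). Rec114, a meiotic recombination protein 67116 bases from Hcn4, was the 1 neighbour called. It had 86, 41 and 103 counts in CCI rats 1, 2 and 3 and 37, 39 and 35 in sham rats 1, 2 and 3, a log2 fold change of 1.12 with a standard error of 0.41 (unadjusted p = 0.03102, adjusted p = 0.4033 in edgeR's test). The call was lost in 8 of 14 alternatives, among them the fits without CCI 1, CCI 3 or any of the sham rats, in which the log2 fold change ran from 0.81 to 1.20.

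Proteins that bind HCN channels and set their trafficking or gating were taken as a list of 12 partners, all of which were tested. Of these 0 were called in either direction, and 0 had an unadjusted p under 0.05 in edgeR's test, against 10.7% of all rows. DESeq2 and edgeR's exact test also had 0, and limma had 2, of which 0 were called. The median log2 fold change was 0.00, from -0.76 to 0.36, beside a median of 0.01 over all rows tested. Pex5l, which encodes TRIP8b, the auxiliary subunit that sets the surface level and the cAMP response of HCN channels, was abundant and steady, at 379, 374.3 and 370.4 CPM in sham rats 1, 2 and 3 and 389, 368.6 and 359.9 CPM in CCI rats 1, 2 and 3. Its log2 fold change was -0.01 with a standard error of 0.05, with overlapping groups and a sign that varied between processings.

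The other partners spread around 0. Kctd3, which binds HCN3, had a log2 fold change of -0.05 (unadjusted p = 0.3837), and Irag2, a binding partner of HCN4 (older name Lrmp), had 0.32 (unadjusted p = 0.2884). Kcne2, a small beta subunit known as MiRP1, was low at 0.775 to 1.60 CPM and had 0.36 (unadjusted p = 0.3857). Flna, the actin crosslinker filamin A, had 0.15 (unadjusted p = 0.06129), and Vapb, a membrane contact protein of the endoplasmic reticulum, had -0.12 (unadjusted p = 0.05637). Another Vapb row with more counts, at 69.6 to 76.3 CPM, had -0.05 with overlapping groups (unadjusted p = 0.3928 in edgeR's test). Nedd4l, a ubiquitin ligase of membrane channels, had 0.12, with CCI 3, sham 1 and sham 2 at 317.8 to 327.3 CPM and the other libraries at 422.1 CPM or more. The row taken for Magi2, a scaffold protein, had the value farthest from 0 at -0.76, but it spans 298 bases, is not typed as protein-coding and was at 0.105 to 0.388 CPM with overlapping groups (unadjusted p = 0.2459), and it was called lower without CCI 2 alone. Opposite to it lies a longer row of 1480943 bases that joins Magi2 with other gene models, was at 44.4 to 68.6 CPM and had 0.25 (unadjusted p = 0.1329 in edgeR's test). With the row of most counts taken for each symbol, chosen after seeing the data, the partner list ran from -0.05 to 0.36 with a median of 0.05 and 0 called.

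Adenylyl cyclases make the cAMP that eases the opening of HCN channels. All 9 were tested and 0 were called, and their log2 fold changes ran from -0.09 to 0.23 (median 0.12). Adcy2 was the 1 with an unadjusted p under 0.05 (0.04675 in edgeR's test) at a log2 fold change of 0.19 with a standard error of 0.08, and its row is joined with another gene model. Its groups did not overlap, with 29.5 to 31.5 CPM in sham rats and 33.1 to 37.8 CPM in CCI rats. The same held for Adcy7, with 35.1 to 40.6 CPM in sham rats and 41.1 to 45.1 CPM in CCI rats (unadjusted p = 0.133 in edgeR's test), and for 17.3% of all rows tested in either direction. DESeq2 and edgeR's exact test gave 0 cyclases with an unadjusted p under 0.05, while each limma fit gave 1, again Adcy2.

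The cyclic nucleotide-gated (CNG) channels of photoreceptors and olfactory neurons share the binding domain of HCN channels. Of 6 listed, 5 were in the table and the rows taken for them all stayed under the filter, Cnga3 being at 0 in all libraries. A short row of 1058 bases with no type, also under the symbol Cngb3, was tested and had -0.22 (unadjusted p = 0.6655 in edgeR's test). Cnga4, a modulatory subunit of the olfactory channel, is named here after its values were seen. It had 149, 54 and 30 counts in CCI rats 1, 2 and 3 and 0, 0 and 6 counts in sham rats 1, 2 and 3, so that 233 of the 239 reads were from CCI rats. In the fit without a filter its log2 fold change was 5.24 with a standard error of 1.27 (unadjusted p = 0.004458, adjusted p = 0.2672 in edgeR's test), a value that depends on how counts of 0 are handled and ran from 4.38 without CCI 1 to 9.29 without sham 3. Its highest level, 1.84 CPM in CCI 1, was far under that of any HCN member.

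The Kcnh channels (EAG, ERG and ELK potassium channels) carry a related domain and are the nearest potassium channels in structure. Of 8 listed, 6 were tested, and Kcnh7, an ERG channel of neurons, was called lower. It had 365, 370.3 and 348.8 CPM in sham rats 1, 2 and 3 and 195.2, 231.6 and 253.3 CPM in CCI rats 1, 2 and 3, so the groups were well apart. It fell by 0.67 on the log2 scale with a standard error of 0.10 (unadjusted p = 0.0003316, adjusted p = 0.09716 in edgeR's test), and without CCI 1 the value was -0.58, just short of the limit. The adjusted p ran from 7.249e-07 with DESeq2 to 0.2655. Kcnh2, the ERG channel of cardiac repolarization, had -0.22 (unadjusted p = 0.02681 in edgeR's test), and the other tested Kcnh genes lay between -0.21 and 0.25. Kcnh7, Kcnh2 and Hcn2 each had every CCI rat below every sham rat, as did 8.7% of all rows tested, and the differences between their log2 fold changes were not tested.

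Genes with the most similar profile over the 6 libraries were ranked by Pearson's r of log2 CPM among 12667 protein-coding genes, as a description. Among the nearest to Hcn2 were Lrpprc, a mitochondrial RNA-binding protein (0.992), Sirt5, a mitochondrial deacylase (0.992), Trip10 (0.989) and Tbp, the TATA-binding protein (0.988). Their own log2 fold changes lay between -0.26 and -0.16. Among the nearest to Hcn3 were Wfdc2 (0.981), Slc25a1, the mitochondrial citrate carrier (0.977), Exog (0.973) and Gdap2 (0.968). For Hcn4 they were LOC361646 (0.988), Tonsl (0.986), Bpnt1 (0.984), Zfp13 (0.978) and Zfp688 (0.972). All of these rest on the same 6 libraries, which share the group difference, and no p is given for them.

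The annotation carried by the table lists 23 gene ontology terms for Hcn2, 27 for Hcn3 and 35 for Hcn4, of which 15 are common to all members. The shared terms cover sodium and potassium transport and the regulation of membrane potential. Hcn2 and Hcn4, but not Hcn3, carry the terms for the HCN channel complex and the cellular response to cAMP, and the KEGG pathway of cAMP signaling, whereas the term for cAMP binding is given to Hcn3 and Hcn4 but not to Hcn2. Terms of heart rate and of the sinoatrial node action potential are given to Hcn4 alone, and those of axon, dendrite and cone cell pedicle to Hcn3 alone. Hcn2 and Hcn4 share the channel complex term, while the FPKM level of Hcn2 was 5.74 to 9.06 times that of Hcn4 (2.64 to 4.17 times in CPM) and their log2 fold changes were -0.29 and 0.03.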

How the data were processed

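The deposited gene table holds whole-number counts of reads per row and library, which the authors made without normalization, and FPKM values, which the authors made by dividing those counts by the library total and a row length. Per the labels' processing notes, HISAT2 2.0 and StringTie 1.3.0 were used, and the methods name the rat genome V101 and edgeR. Whether strand was used in counting is not given in the sources used here. Of the rows tested, 6591 had no gene symbol, and such rows took between 5.37% and 5.72% of each library's counts.

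Samples were grouped by surgery as labelled. Rows whose FPKM averaged 0.5 or more were tested with edgeR 4.0.16 (quasi-likelihood test, TMM, all 6 libraries, Benjamini-Hochberg over 26663 rows; R 4.3.3). Standard errors are the log2 fold change divided by the root of the F statistic. The methods describe 1 rat per library, while the labels mention a pooled sample. Within a group, libraries differed beyond sampling noise (chi-square per degree of freedom from 58.2 to 85.6). Ratios and shares were compared with exact permutation tests (scipy 1.17.1). Alternatives were RLE factors, DESeq2 1.42.0, edgeR's exact test, limma 3.58.1 on log2(FPKM + 0.1) and log2(FPKM + 1), an FPKM minimum of 1, no filter, protein-coding rows, a replicate block and leaving out each library. The fits were tested on simulated data.

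The members, partner and marker lists were chosen with earlier results of these data known. Genes named were the members, rows overlapping or next to them, the partner list, at most 3 cyclic nucleotide or Kcnh genes by smallest p, and those of the 5 genes most alike each member that are reported here, and marker genes are examples from their lists. For a list symbol on several rows, protein-coding rows had priority, then rows of that symbol alone, then higher counts. Other named genes were chosen after their values were seen. Sequences were not printed, and other HCN family rows and some of the most alike genes are not reported here. No per-sample column was left unused.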

Additional observations from a re-analysis of the deposited data

How the results depend on the processing

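Hcn2, Hcn3 and Hcn4 stayed uncalled under all 15 alternatives, and the directions of Hcn2 and Hcn3 held in all of them. Leaving out single libraries turned Hcn4 (-0.0949 to 0.1671), Bsg (-0.0109 to 0.0971), Fdps (-0.0515 to 0.0317), the row of Scamp3, Mir3541 and Fam189b (-0.0565 to 0.0436) and Pex5l (-0.0403 to 0.0163). Fdps also turned with RLE factors (-0.0014) and DESeq2 (-0.0013), and Pex5l with limma on log2(FPKM + 0.1) (0.0076), limma on log2(FPKM + 1) (0.0066) and protein-coding rows alone (0.0041); all of these were near 0 and uncalled, and the cause was not tested.

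The log2 ratio difference of Hcn2 to the neuron sum, -0.46, was 0.20 against large neuron markers and -0.24 against nociceptor markers, both with overlapping groups and chosen after seeing the data, and -0.23 without Tubb3 and Stmn2. Leaving out single libraries gave -0.51 to -0.40 for it, 0.35 to 0.59 for Hcn3 to Hcn2 and 0.21 to 0.41 for Hcn4 to Hcn2.

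Among partners and neighbours the 1 gene called higher, Rec114, became 0 with both limma fits, with a mean FPKM of at least 1 (where Rec114 was not tested) and with the replicate block. Leaving out single libraries gave 0 to 1 higher and 0 to 1 lower. With the row of most counts taken for each symbol, added after seeing the data, these counts stayed at 1 and 0, and Magi2 turned from -0.76 to 0.25. Over all rows, 686 were called higher and 336 lower. These counts were 410 and 161 with limma on log2(FPKM + 1), 332 and 112 with protein-coding rows alone, and 562 to 767 and 312 to 421 without single libraries. At an adjusted p under 0.05, edgeR's quasi-likelihood test gave 17 higher and 8 lower, DESeq2 432 and 319, edgeR's exact test 164 and 67, and protein-coding rows alone 36 and 35. Limma on log2(FPKM + 0.1) gave 5 lower, and leaving out single libraries 3 to 40 higher and 3 to 21 lower.

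Libraries with the same replicate number did not deviate together (correlations of -0.01, -0.02 and -0.05). With so few libraries per group, such correlations cannot decide whether rats of the same number were paired. The replicate block in edgeR's test left 0 higher and 0 lower rows past the adjusted threshold, and 617 and 318 at the study's limits. Hcn2 then stood at -0.29, Hcn3 at 0.17 and Hcn4 at 0.04.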

Other observations

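Hcn2 was also set against markers of neuron classes, in comparisons chosen after seeing the data. Against the sum of the 8 large neuron markers, the log2 ratio of Hcn2 was -7.15 ± 0.09 (SD, n = 3) in CCI rats and -7.35 ± 0.20 (SD, n = 3) in sham rats, a difference of 0.20 with overlapping groups (exact permutation p = 0.2). Most of that sum came from the neurofilament genes Nefh, Nefm and Nefl, and Nefm ran from 1143 to 3590 CPM with overlapping groups. Against the sum of the 9 nociceptor markers the log2 ratio of Hcn2 was -5.64 ± 0.14 in CCI rats and -5.40 ± 0.15 in sham rats, a difference of -0.24, also with overlapping groups (exact permutation p = 0.2). Hcn2 thus stood lower in CCI rats against the pan-neuronal sum, while the ratios to the large neuron and nociceptor sums overlapped between the groups.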
